A study of Mus musculus with 8 samples.

Results

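The 37 genes described here are transcripts of the integrated stress response and of the cytosolic aminoacyl-tRNA synthetases, out of 55421 genes in a table of mouse bone marrow derived macrophages. They were chosen by symbol, with earlier results of these data known. The list holds 9 regulators of the response, 9 enzymes of amino acid and one-carbon metabolism, 8 membrane proteins and 11 synthetases. Of the membrane proteins, 7 carry amino acids and 1 is the lipoprotein receptor Vldlr. All 37 had a row in the table. The macrophages were primary cells grown from marrow and taken on day 7 of differentiation, and the series title names C57 mice. RNA was sequenced from 4 wild-type (WT) and 4 Baf60a knockout (Baf60a KO) libraries, and no further treatment is labelled in either group. Baf60a is encoded by Smarcd1, a subunit of the SWI/SNF chromatin remodelling complexes. How the gene was deleted, in which cells, and how old the mice were are not stated in the labels. Whether each library is a separate mouse is not labelled, so p-values set group differences against the spread among these libraries, which may be partly technical.

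In the integrated stress response, kinases that sense amino acid shortage, double-stranded RNA, heme shortage or misfolded protein phosphorylate the initiation factor eIF2. General translation then slows, while the mRNA of the transcription factor ATF4 is translated more. ATF4 acts with partners of the C/EBP family on genes for amino acid synthesis and import and on many synthetases, which load amino acids onto tRNAs. The phosphatase subunit encoded by Ppp1r15a removes the phosphate from eIF2 again. Because ATF4 is controlled largely at translation, its mRNA level does not report the amount of the protein.

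Values are TPM, a unit that divides reads by transcript length and sums to 1000000 in every library, so each library's read depth is unknown and levels can be compared between genes. The targeted gene Smarcd1 (log2 fold change -0.47) was at 14.8 ± 0.998 TPM in WT and at 10.5 ± 0.447 in KO (SD, n = 4 each), a fall without overlap (limma adjusted p = 0.00756). All 8 macrophage markers passed the filter, with means from 13.3 to 2960 TPM, whereas the 4 T cell markers stayed under 1 TPM in every library. The summed level of 8 stromal markers, Col1a1 and Col1a2 foremost, was 3234 to 3628 TPM in WT and 3948 to 4241 in KO. Of the 7 stromal markers tested, 4 rose and 3 did not pass. Among those 3, Dcn had a fold change below 0 (log2 fold change -0.43, limma adjusted p = 0.277). Of the macrophage markers, Cd68 and Itgam rose, Lyz2, the most abundant, fell from 3993 ± 248 to 1927 ± 110 TPM, and 5 did not pass. Their summed level was 5688 to 6597 TPM in WT and 4193 to 4536 in KO. Without Lyz2, left out after its values were seen, it was 1879 to 2288 TPM in WT and 2384 to 2481 in KO, and all 7 remaining markers had fold changes above 0. The 4 endothelial markers summed to 18.08 to 23.45 TPM in WT and 25.03 to 31.92 in KO, where Pecam1 rose (limma adjusted p = 0.0144) and the other 2 tested did not pass. The 8 neutrophil markers summed to 199 to 293 TPM in WT and 149.5 to 241.7 in KO, with 5 tested, 0 called by limma, 1 at an unadjusted p under 0.05 and all 5 below 0. The part of these shifts in the results given here was not tested. In bulk RNA, a change in the number of cells of a type and a change in a gene's RNA per cell cannot be told apart. Processed pseudogenes held 12.004% and 12.25% of TPM in WT replicates 3 and 4 against 6.78% to 8.38% in the other 6 libraries.

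In Baf60a KO cultures the estimated fold change was slightly below 0 for most of these transcripts, and 3 of the 37 passed the test. Ppp1r15a fell by 23.6%, Psat1, an enzyme of serine synthesis, fell by 19.1%, and the glutamine transporter gene Slc1a5 fell by 16.5%, while 0 rose and 34 did not pass. A gene was called, and is said to rise or fall, at a limma adjusted p under 0.05 over all 13933 genes tested, on the scale log2(TPM + 1). All 37 passed the filter on low values, since the lowest value of any of them in any library was 4.92 TPM. The 3 falls are 8.1% of the 37, where 1.21% of all genes tested were called lower and 5.61% in either direction, and the 0 rises stand beside 4.4% of all genes called higher. At an unadjusted p under 0.05, 18 of the 37 were lower and 1 was higher, against 6.42% and 15.9% of all genes. The fold change was below 0 in 30 of the 37 (81.1%), against 42.5% of all genes. These changes were small: the median log2 fold change was -0.11, beside 0.03 over all genes, and 7 of the 37 reached 0.2 in size. Because the 37 were chosen with earlier results of these data known, the shares describe the list and were not tested.

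**Figure D1:**
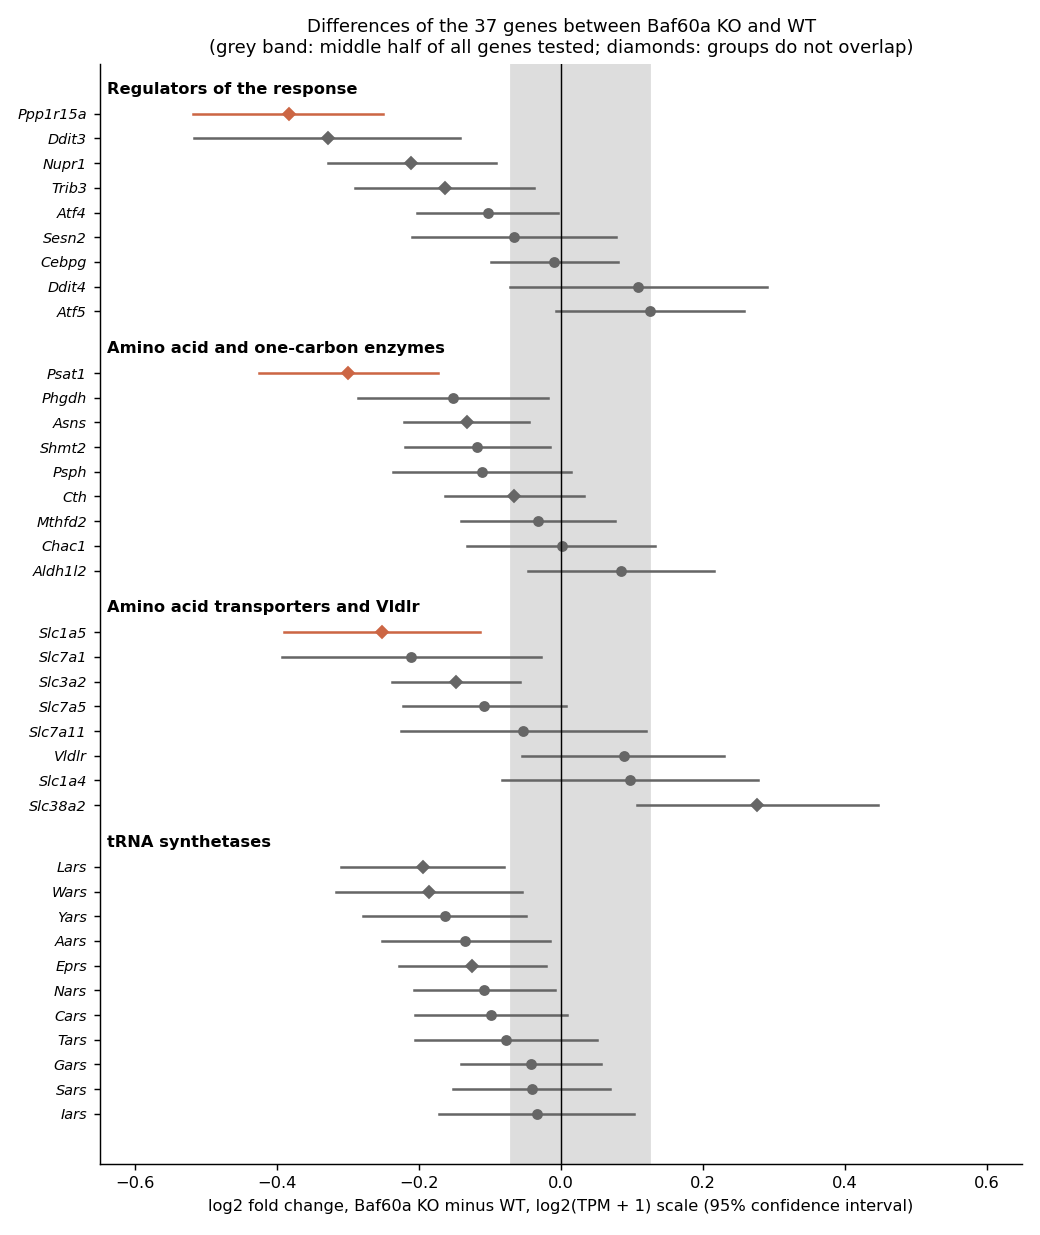
Each point is the log2 fold change of 1 gene, Baf60a KO minus WT, with its 95% confidence interval from limma (4 libraries per group). Called genes are in red, diamonds mark genes whose groups do not overlap, and the grey band spans the 25th to the 75th percentile of all genes tested (-0.07 to 0.13). Ppp1r15a, Psat1 and Slc1a5 are the called genes, and all 11 synthetases lie left of 0.

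Separation by library was read from the same values as the fold changes, so its direction is no separate support. All KO libraries lay below all WT libraries for 12 of the 37 genes (32.4%), and above them for 1, against 3.96% and 11.9% of all genes tested. Over all genes 613 rose and 169 fell, so 78.4% of calls were rises. Scaling TPM by median-of-ratios factors gave 503 rises and 406 falls (55.3%). The numbers were 440 against 254 (63.4%) after quantile normalization and 594 against 321 (64.9%) when TPM was rescaled to protein-coding genes. Those scalings called 13, 6 and 8 of the 37 genes lower and 0 higher, so the count of 3 depended on the scaling. Ppp1r15a was called in all 19 alternative fits, Psat1 in 11 and Slc1a5 in 9.

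To show what the promoters share, RefSeq windows (build GRCm38.p6, 250 bases before to 50 after the start) were searched on both strands for TGATGNAA, the core of the C/EBP-ATF response element that ATF4 binds. Of the 37 genes, 29 had a window, and Aldh1l2, Cth, Slc7a5, Slc1a5, Nars, Wars, Cars and Lars had none. The letters were found in 12 of the 29 (41.4%) and in 4.51% of 27025 genes, or 3.97% of all 32851 windows. ATF4 targets were among the reasons these genes are grouped, so this share describes the list. The 12 were Trib3, Nupr1, Asns, Chac1, Slc7a11, Slc1a4, Vldlr and the synthetase genes Aars, Gars, Yars, Tars and Iars. Several are printed 5′ to 3′ on the gene's strand, with the match in capitals. An element on the opposite strand appears as its reverse complement.

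Nupr1 (chr7:126625563-126625590): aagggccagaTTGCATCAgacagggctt
Trib3 (chr2:152344029-152344056): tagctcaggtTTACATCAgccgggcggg
Asns (chr6:7693215-7693242): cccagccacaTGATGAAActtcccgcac
Slc7a11 (chr3:50443662-50443689): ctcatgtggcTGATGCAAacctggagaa
Yars (chr4:129189896-129189923): cgagctcagcTGATGCAAcccgacggga
Tars (chr15:11399656-11399683): aggagtcccgTTGCATCAgctggttagc

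The 12 genes with the letters held 0 of the called falls and had a median log2 fold change of -0.07, ranging from -0.21 to 0.10. Among the 17 without them were 2 of the falls, Ppp1r15a and Psat1, and the median was -0.11, ranging from -0.38 to 0.28. Slc1a5, also called, had no window. So few calls cannot show a difference between the 12 and the 17, and none was tested. A match is not evidence of binding, and a lack of these letters applies to this window only. Ppp1r15a was also the 1 gene of the 29 with the palindromic cAMP response element TGACGTCA, which 2.03% of genes hold in such a window. Its 150 bases before the start site (chr7:45526269-45526418, minus strand) are shown because it was the most stable of the falls, with that element in capitals.

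Ppp1r15a: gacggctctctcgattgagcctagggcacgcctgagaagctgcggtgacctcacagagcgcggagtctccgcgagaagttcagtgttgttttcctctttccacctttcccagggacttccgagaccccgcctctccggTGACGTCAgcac

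Among the 9 regulators, Ppp1r15a fell, 8 did not pass and 7 had a fold change below 0. Ppp1r15a (chromosome 7, 45522916 to 45526268, build mm10) was at 83.25, 93.36, 85.14 and 84.71 TPM in the WT libraries, replicates 1 to 4 in order, and at 63.08, 71.43, 61.94 and 68.19 in KO. Every KO library was below every WT library. On the log2 scale KO differed from WT by -0.38 (SE 0.059, limma adjusted p = 0.0125), and adjusted p stayed between 0.0191 and 0.0437 with any 1 library left out. Its constitutive counterpart Ppp1r15b, which directs the same dephosphorylation without stress, was at 28.2 ± 2.38 TPM in WT and at 28.1 ± 0.971 in KO (log2 fold change -0.003, 95% interval -0.15 to 0.14).

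The transcription factors of the response stood close to the threshold or well short of it. Ddit3, which encodes CHOP, a factor linked to stress-induced cell death, was at 510.79, 512.08, 417.13 and 439.69 TPM in WT and at 364.40, 403.55, 337.84 and 386.47 in KO. Its groups did not overlap, yet WT replicates 3 and 4 lay nearer to the KO libraries than replicates 1 and 2 did. This was a log2 fold change of -0.33 (SE 0.083, limma adjusted p = 0.0544). Without WT replicates 3 and 4 it was -0.46 and was called (adjusted p = 0.0293), and it was also called with WT replicate 3 alone left out (adjusted p = 0.0405). Atf4, the central factor, was at 334.48, 343.93, 307.66 and 320.50 TPM in WT and at 302.49, 314.12, 293.59 and 305.11 in KO. Here the highest KO library exceeded the lowest WT library, and the log2 fold change of -0.10 did not pass (adjusted p = 0.208). Its relative Atf5, also controlled by translation, was at 95.1 ± 6.80 TPM in WT and at 103.6 ± 4.45 in KO (log2 fold change 0.13, adjusted p = 0.249). Cebpg, which encodes a C/EBP partner of ATF4, was at 37.5 ± 1.18 and 37.3 ± 0.473 TPM (log2 fold change -0.01, 95% interval -0.10 to 0.08).

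Nupr1 and Trib3 were lower in every KO library without passing. Nupr1, a small stress-induced chromatin protein, was at 194.81, 205.32, 180.07 and 189.05 TPM in WT and at 162.75, 177.41, 158.74 and 165.15 in KO. Its log2 fold change of -0.21 just missed the threshold (adjusted p = 0.0523), and it was called without WT replicate 3 (adjusted p = 0.0420). Trib3, a pseudokinase that restrains ATF4, was at 72.5 ± 3.88 TPM in WT and at 64.6 ± 3.57 in KO (log2 fold change -0.16, adjusted p = 0.126). Neither inhibitor of mTORC1 signalling in the group passed: Sesn2 had a log2 fold change of -0.07 (adjusted p = 0.601) and Ddit4 of 0.11 (adjusted p = 0.476).

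**Figure D2:**
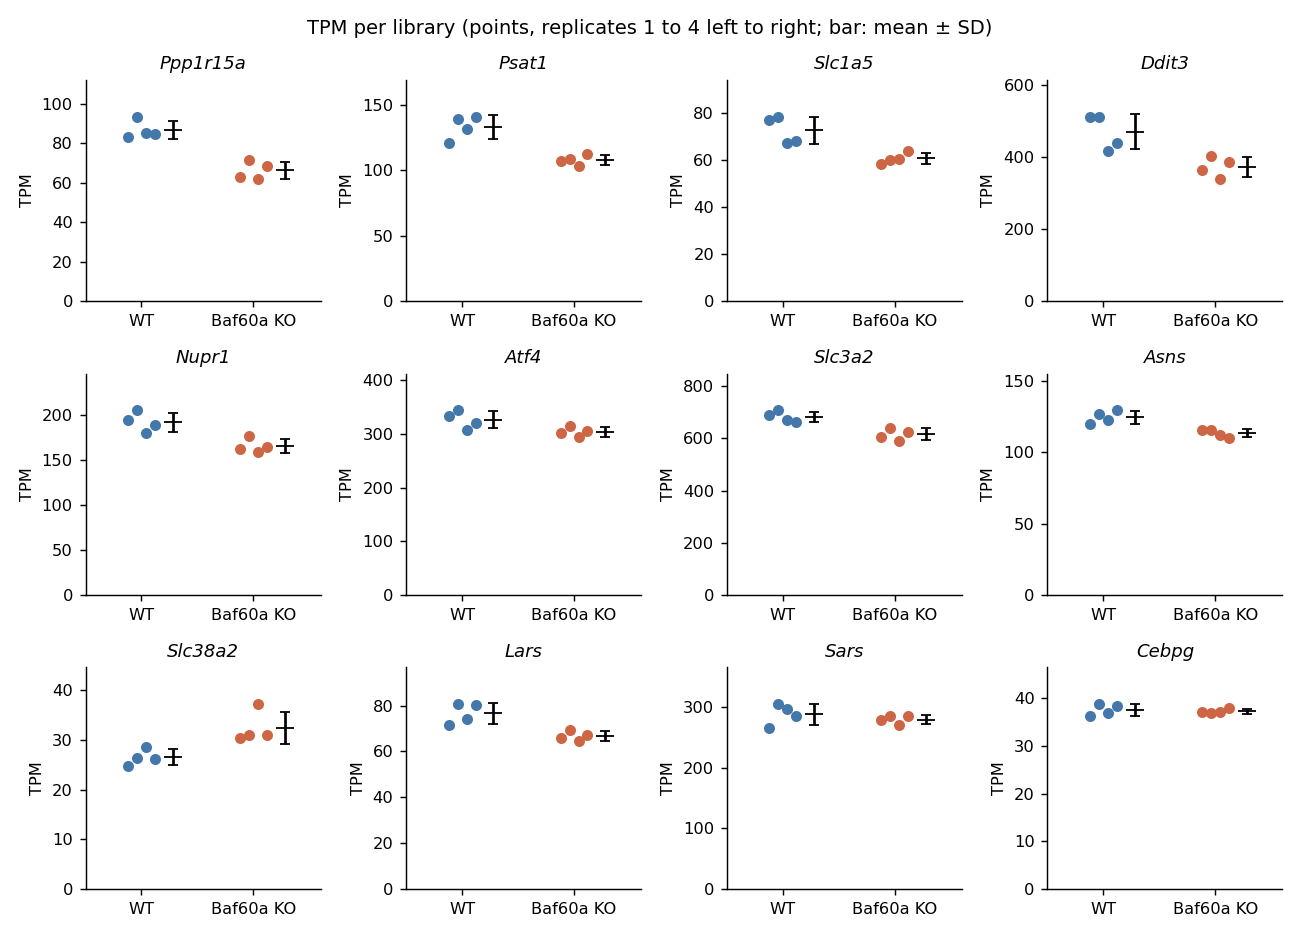
TPM of 12 of the 37 genes in each WT (blue) and Baf60a KO (red) library, with axes from 0; the black bar is the mean and SD of 4 libraries. In Ppp1r15a, Psat1 and Slc1a5 the KO points lie below all WT points, Slc38a2 is the gene with the KO points above, and in Sars and Cebpg the points overlap.

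Among the 9 enzymes, Psat1 fell, 8 did not pass and 7 had a fold change below 0. Serine synthesis runs through Phgdh, Psat1 and Psph in that order. Psat1 (chromosome 19, 15904678 to 15947337) was at 120.82, 139.30, 131.42 and 141.14 TPM in WT and at 106.91, 108.64, 103.35 and 112.33 in KO. No KO library reached the lowest WT library, replicate 1. KO minus WT came to -0.30 on the log2 scale (SE 0.055, limma adjusted p = 0.0245), and the call ended in 6 of the 8 fits with 1 library left out, the highest adjusted p being 0.0712 without KO replicate 3. It also ended without WT replicates 3 and 4 (0.0691). Phgdh, the entry enzyme, was at 118.2 ± 8.95 TPM in WT and at 106.1 ± 4.09 in KO (log2 fold change -0.15, adjusted p = 0.172). Its transcript is 98.7% identical over 1597 bases to the processed pseudogene Gm7901, listed at 4.40 to 13.5 TPM, so reads could be split between them. Psph, the last step, had a log2 fold change of -0.11 (adjusted p = 0.275), and 452 bases of its exons overlap the opposite-strand gene Cct6a, listed at 181 to 262 TPM. The labels do not say whether strand was used, so Psph is uncertain.

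The other enzymes differed by less. Asns, asparagine synthetase, was at 119.56, 126.70, 122.47 and 129.31 TPM in WT and at 115.32, 115.95, 112.27 and 110.11 in KO. The groups did not overlap, but the log2 fold change of -0.13 did not pass (adjusted p = 0.0843). None of the mitochondrial one-carbon enzymes passed: Shmt2, which splits serine, had a log2 fold change of -0.12 (adjusted p = 0.168), Mthfd2 -0.03 (0.762) and Aldh1l2 0.08 (0.439). Cth, which makes cysteine in transsulfuration, was at 13.6 ± 0.229 TPM in WT and at 12.98 ± 0.150 in KO, without overlap (log2 fold change -0.07, adjusted p = 0.418). Chac1, which breaks down glutathione, was at 25.5 ± 1.63 and 25.4 ± 1.15 TPM (95% interval of the log2 fold change -0.13 to 0.13).

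Among the 8 membrane proteins, Slc1a5 fell and 7 did not pass, with fold changes in both directions. Slc1a5 (chromosome 7, 16781340 to 16798274) encodes ASCT2, an exchanger that brings in glutamine. It was at 76.97, 78.54, 67.25 and 68.17 TPM in WT and at 58.60, 59.91, 60.63 and 63.91 in KO. As with Ddit3, WT replicates 3 and 4 were the WT libraries nearest to KO. The difference was -0.25 on the log2 scale (SE 0.061, limma adjusted p = 0.0486). This call ended in 7 of the 8 fits with 1 library left out, reaching an adjusted p of 0.123 without KO replicate 1. It also ended in the fits without a filter (0.0886) and without a variance trend (0.0683). Without WT replicates 3 and 4 it held.

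Slc38a2 was the 1 gene of the 37 with all KO libraries above all WT libraries. It encodes SNAT2, an importer of small neutral amino acids that is induced when these are scarce. Its TPM was 24.72, 26.48, 28.63 and 26.22 in WT and 30.39, 30.95, 37.22 and 31.00 in KO, with KO replicate 3 standing apart. The log2 fold change of 0.28 did not pass (SE 0.074, limma adjusted p = 0.0666). Slc1a4, a relative of Slc1a5 that carries serine and alanine, was at 18.6 ± 1.88 and 19.9 ± 1.36 TPM (log2 fold change 0.10, adjusted p = 0.530). Opposite signs in Slc1a5 and Slc38a2 were not tested as a difference.

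Slc3a2 encodes 4F2hc, the heavy chain shared by several transporters, and was the most abundant of the 37. It was at 690.65, 706.49, 668.92 and 661.75 TPM in WT and at 604.98, 640.71, 591.01 and 625.74 in KO. Those groups were separate, with a log2 fold change of -0.15 (SE 0.040, adjusted p = 0.0660). Its light chains were far lower: Slc7a5, which carries leucine and other large amino acids, was at 75.3 ± 4.23 and 69.7 ± 2.72 TPM (log2 fold change -0.11, adjusted p = 0.253). Slc7a11, the cystine importer, was at 5.71 ± 0.344 and 5.47 ± 0.495 TPM (log2 fold change -0.05, adjusted p = 0.752), the lowest level of the 37. Its transcript shares 373 bases at 95.4% to 96.2% identity with the tubulin genes Tuba1a, Tuba1b and Tuba1c, listed at 326 to 919 TPM, and 96.5% with Gm3226, at 27.4 to 86.2 TPM, so its level is uncertain. Slc7a1, an arginine and lysine carrier that needs no heavy chain, had a log2 fold change of -0.21 (adjusted p = 0.165), and Vldlr, a lipoprotein receptor induced in the response, of 0.09 (adjusted p = 0.464).

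All 11 synthetases had fold changes below 0 and 0 passed by limma, while 6 of them had an unadjusted p under 0.05. Without WT replicate 2, Iars was at 0.02 and the other 10 stayed below 0. Their median log2 fold change was -0.11, with a range from -0.20 to -0.03, and their summed level was 1311 to 1450 TPM in WT and 1247 to 1319 in KO. Lars, which charges tRNA with leucine, was at 71.61, 80.56, 73.98 and 80.26 TPM in WT and at 65.71, 69.47, 64.53 and 67.14 in KO. It had the largest difference of the 11 in size, without overlap (log2 fold change -0.20, SE 0.050, limma adjusted p = 0.0590). Wars, for tryptophan and known to be induced by interferon, was at 69.96, 77.56, 66.53 and 68.37 TPM in WT and at 61.97, 65.62, 58.49 and 61.47 in KO. Its groups were separate too (log2 fold change -0.19, adjusted p = 0.0997). Eprs, for glutamate and proline, was the other gene without overlap, at 117.5 ± 6.23 and 107.6 ± 2.88 TPM (log2 fold change -0.13, adjusted p = 0.151).

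For the remaining 8 synthetases the groups overlapped. Yars, for tyrosine, had a log2 fold change of -0.16 (adjusted p = 0.0968), Aars, for alanine, -0.14 (0.170), Nars, for asparagine, -0.11 (0.188), and Cars, for cysteine, -0.10 (0.257). Aars shares 1326 exon bases with the same-strand gene Exosc6, listed at 0 TPM in every library, so reads of Exosc6 could be counted as Aars. Tars, for threonine, had -0.08 (0.470), Gars, for glycine, -0.04 (0.633), Sars, for serine, -0.04 (0.690), and Iars, for isoleucine, -0.03 (0.804). The most abundant were Sars at 283.8 TPM and Nars at 276.7 over all 8 libraries, and the least abundant Iars at 47.9 and Tars at 49.0; neither pair was separated by its spread. Grouped by the structure of the catalytic domain, the 5 class I enzymes (Wars, Yars, Cars, Iars and Lars) had a median log2 fold change of -0.16 and the 5 class II enzymes (Aars, Sars, Gars, Nars and Tars) of -0.08, a difference that was not tested. Eprs joins a domain of each class. Under median-of-ratios scaling 5 of the 11, Aars, Wars, Yars, Eprs and Lars, were called lower (adjusted p from 0.0268 to 0.0400).

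The rest of the pathway was read from 8 lists of 119 genes, of which 116 were tested. By limma 3 were called higher (2.59%) and 1 lower (0.86%), shares under the 4.4% and 1.21% of all genes. Among 13 other cytosolic synthetases and their complex proteins, Qars rose and 12 did not pass. Qars, for glutamine, was at 79.01, 88.46, 75.78 and 82.58 TPM in WT and at 96.22, 91.53, 98.77 and 99.63 in KO. Each KO library was above each WT library (log2 fold change 0.24, SE 0.055, limma adjusted p = 0.0394). That call ended in 7 of the 8 fits with 1 library left out, reaching an adjusted p of 0.116 without KO replicate 4. Leaving out WT replicates 3 and 4 together also ended it (0.0949). The list's median log2 fold change was -0.04. Its fold changes were below 0 in 10 of the 13 and above 0 in 3. The sign was thus mostly shared with the 11 synthetases given earlier, all below 0. At an unadjusted limma p under 0.05, 1 gene of the list, Rars, was lower and 1, Qars, was higher. Rars, for arginine and the most abundant of the list, was at 112.0 ± 4.78 and 102.0 ± 4.20 TPM (log2 fold change -0.13, adjusted p = 0.132).

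None of the 20 mitochondrial synthetases and amidotransferase subunits was called by limma, and 0 had an unadjusted p under 0.05. Their fold changes had the other sign in 14 of 20, with a median of 0.06. Lars2, the most abundant, ranged from 120.58 to 225.71 TPM in WT and from 164.64 to 310.47 in KO, so its log2 fold change of 0.47 carried an SE of 0.25 (adjusted p = 0.316). Similar transcripts were not searched for this gene. Of 19 genes for eIF2 kinases, eIF2, its exchange factor eIF2B and related phosphatases, 0 were called by limma and 2 had an unadjusted p under 0.05, both higher. These were Eif2ak3, the kinase PERK, with a log2 fold change of 0.22 (adjusted p = 0.114), and Ppp1cc, a catalytic phosphatase subunit, with 0.19 (adjusted p = 0.0742); both are named after their values were seen. Ppp1ca, the most abundant of this list, had a log2 fold change of 0.07 (adjusted p = 0.282).

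Other genes linked to ATF4 went both ways. Of 17, Atf3 rose, Gdf15 fell and 15 did not pass, with a median log2 fold change of -0.04. The fold change was below 0 in 10 and above 0 in 7. At an unadjusted limma p under 0.05, 3 were lower and 1 was higher. Atf3, a stress-induced factor, was at 250.17, 235.16, 204.58 and 250.96 TPM in WT and at 296.66, 307.06, 306.73 and 299.08 in KO (log2 fold change 0.37, limma adjusted p = 0.0210). Without any 1 of the 4 KO libraries it was not called (adjusted p up to 0.0707 without KO replicate 4). Gdf15, a secreted stress signal, was at 839.85, 780.56, 589.12 and 685.71 TPM in WT and at 512.96, 528.92, 441.61 and 567.72 in KO. All its KO libraries were below WT, with WT replicate 3 and KO replicate 4 nearest to each other (log2 fold change -0.49, adjusted p = 0.0456). Its call ended in 7 of the 8 fits with 1 library left out, the highest adjusted p being 0.116 without KO replicate 3.

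Lists of neighbouring metabolism held no call. Of 15 tested genes of serine, folate and one-carbon metabolism, 0 were called by limma and 2 had an unadjusted p under 0.05, and the most abundant, Dld, was at 81.3 ± 2.86 and 76.1 ± 1.73 TPM. Of 6 cysteine and glutathione genes 0 were called and 1 had an unadjusted p under 0.05, with Gclm at 260.5 ± 23.2 and 269.6 ± 7.44 TPM. Of 13 other amino acid transporters 0 were called and 2 had an unadjusted p under 0.05, with a median log2 fold change of 0.11 and Slc43a2 at 266.3 ± 38.7 and 264.9 ± 25.3 TPM. Among 13 targets of IRE1 and ATF6, the other arms of the unfolded protein response, Sdf2l1, a component of an endoplasmic reticulum chaperone complex, rose and 12 did not pass. Sdf2l1 was at 74.1 ± 2.10 TPM in WT and at 86.5 ± 2.38 in KO (log2 fold change 0.22, adjusted p = 0.0210), a call that ended in 4 of the 8 fits with 1 library left out (adjusted p up to 0.0756 without KO replicate 4). It also ended without WT replicates 3 and 4 (0.0620). The median of that list was 0.02. At an unadjusted limma p under 0.05, 3 of its genes were higher, Sdf2l1 among them, and 0 were lower.

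**Figure D3:**
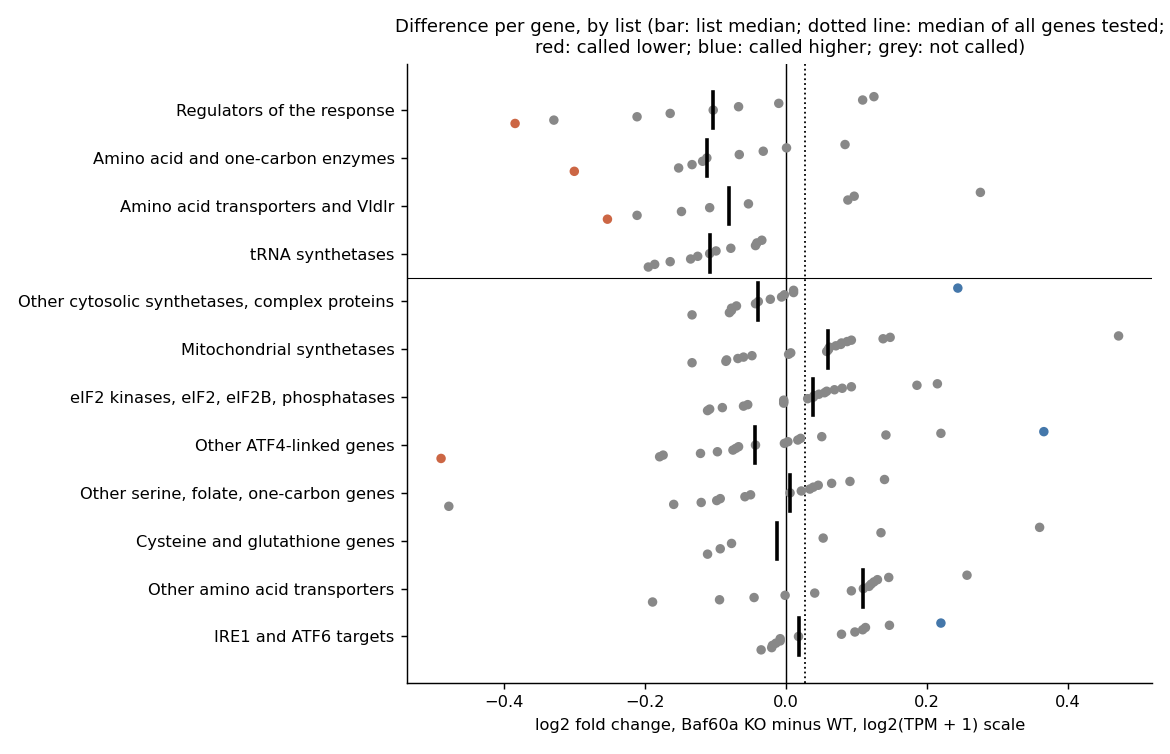
Log2 fold change of each tested gene, Baf60a KO minus WT, in the 4 groups of the 37 genes (above the line) and in 8 further lists; thick bars are list medians and the dotted line is the median of all genes tested (0.03). Medians of the 4 groups lie between -0.11 and -0.08, and those of the other lists between -0.04 and 0.11.

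Library by library, many of the 37 genes shared their highest or lowest library within a group. WT replicate 2 held the highest WT value for 27 of the 37, and WT replicate 1 the lowest for 21. In KO, replicate 2 was highest for 20 and replicate 3 lowest for 20. The matching counts over all genes were not made, so these describe the list. Relative to each gene's WT mean, the median over the 37 genes was -0.06, 0.08, -0.02 and -0.02 (log2) for WT, in replicate order, and -0.10, -0.07, -0.15 and -0.11 for KO. All 4 KO medians were thus below all 4 WT medians, by a margin smaller than the spread among WT libraries. For all genes tested the same median was 0.02, 0.05, -0.05 and -0.02 in WT, and 0.04, 0.03, 0.02 and 0.03 in KO, in replicate order. WT replicate 2 was thus the highest WT library and KO replicate 3 the lowest KO library over all genes as well. Unlike in the 37, WT replicate 3 was the lowest in WT and KO replicate 1 the highest in KO. Leaving out WT replicate 2 moved the median log2 fold change of the 37 from -0.11 to -0.08 and left 1 of them called.

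**Figure D4:**
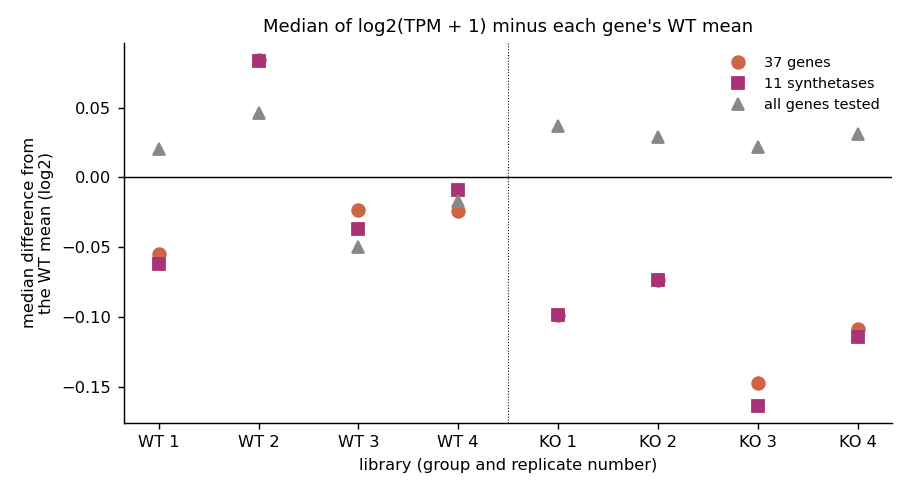
Median, in each library, of log2(TPM + 1) minus the gene's WT mean, for the 37 genes, the 11 synthetases and all genes tested. The 37 genes lie between -0.06 and 0.08 in WT and between -0.15 and -0.07 in KO, while all genes tested stay between -0.05 and 0.05.

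**Figure D5:**
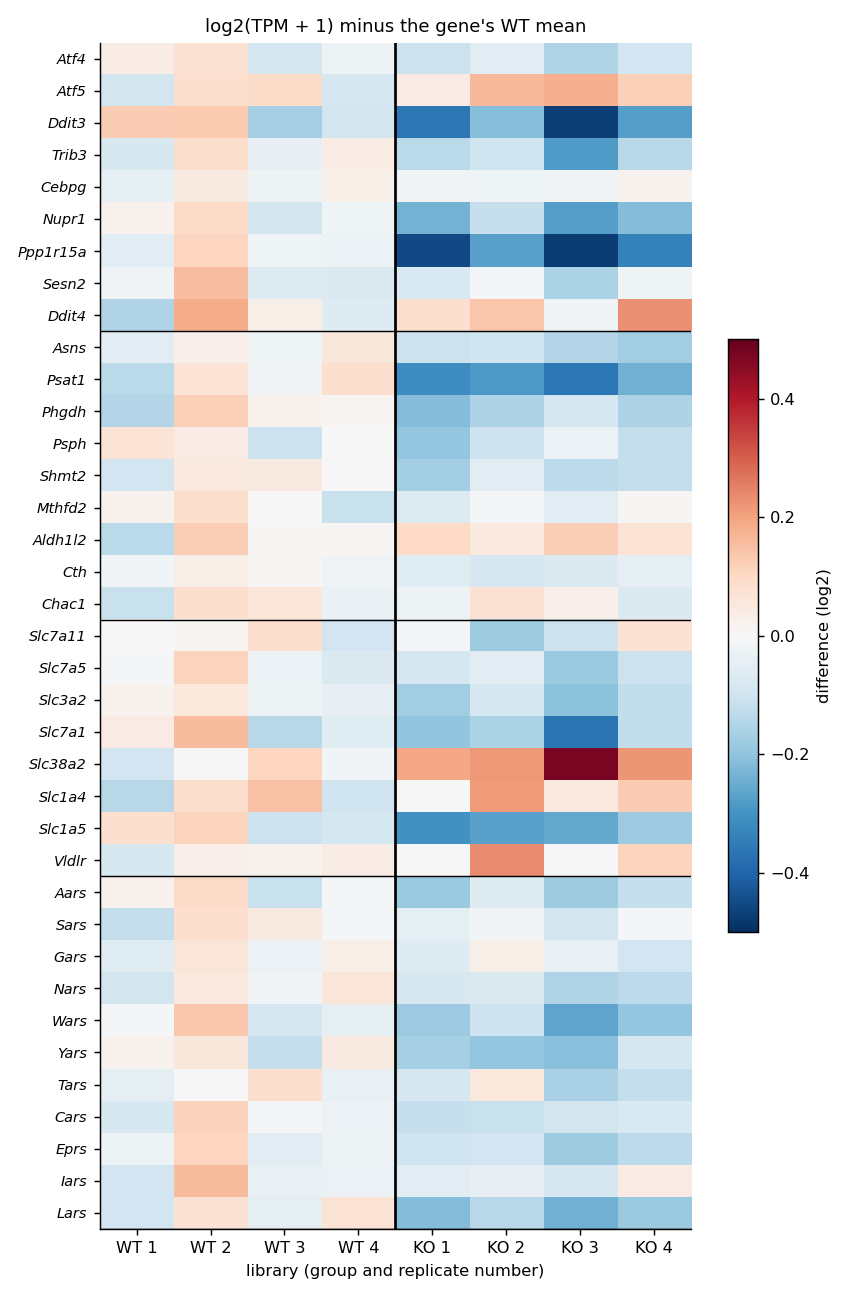
Each row is 1 of the 37 genes and each column 1 library; colour gives log2(TPM + 1) minus the gene's WT mean, blue below and red above. Rows are in the order regulators, enzymes, membrane proteins and synthetases. Ppp1r15a, Ddit3 and Psat1 are the darkest blue in KO, Slc38a2 is the darkest red, and replicate 2 is the reddest of the WT columns.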

How the data were processed

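RNA for 8 libraries was sequenced as paired reads of 51 bp from NEBNext Ultra libraries, per the labels' protocols. Salmon 1.2.0, bcl2fastq and build mm10 are named, per the submitters' processing notes; which annotation was used, and how transcripts were summed, is not given in the sources used here. As deposited by the authors, the table holds 1 TPM value per gene and library, a unit read from the values, since each library sums to 1000000 within rounding. TPM keeps no read depth, so no counting error is given, and a large change in some transcripts moves all others.

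Symbols came from GENCODE M21 (same assembly as mm10) and matched 55240 of 55421 identifiers. No 2 columns were identical. Genes over 1 TPM in at least 4 libraries were compared with limma 3.58.1 (R 4.3.3) on log2(TPM + 1), using a mean-variance trend and no covariate besides group, and p-values were adjusted over 13933 genes by Benjamini-Hochberg. The script was tested on simulated data. Named were all 37 genes, Smarcd1, called genes of 8 pathway lists, and the most abundant gene of lists without a call. Ppp1r15b, Rars, Eif2ak3, Ppp1cc, Dcn and the rising or falling markers were added after their values were seen. The genes, lists and alternatives were chosen with earlier results of these data known. For the 37 genes only, exon overlap came from GENCODE M21 and similar transcripts from BLAST 2.17.0 (at least 95% identity over 200 bases). Promoter windows came from RefSeq. Alternatives covered the pseudocount, filter, variance model, scaling, library weights, replicate block and libraries left out.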

Additional observations from a re-analysis of the deposited data

Results flagged for a closer look

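In 2 of 84 combinations of gene and group examined, 1 library stood apart from the other 3 by Dixon's criterion for 4 samples, which chance meets in about 1 of 20 groups. Slc38a2 was at 37.22 TPM in KO replicate 3, where the nearest KO library was at 31.00 and the lowest at 30.39. Vldlr was at 26.21 TPM in WT replicate 1, with the other WT libraries between 28.19 and 28.59.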

How the results depend on the processing

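Of the fits of single named genes under an alternative, 692 kept the direction and the side of the threshold, 26 passed it newly, 50 no longer passed and 11 changed sign. The count of the 37 genes called lower (3) became 5 with a filter of 5 TPM and 2 without a filter. It was 13 under median-of-ratios scaling, 6 after quantile normalization and 8 after rescaling over protein-coding genes. Without a variance trend it was 2, with library weights 4, and in the fit that blocked on replicate 1. It ranged from 1 to 6 with 1 library left out. The number of the 37 below 0 was between 28 and 31 in all alternatives (30 as reported), and 0 were called higher. The count over all genes (782) was 364 without a filter and 372 without WT replicates 3 and 4 (201 rises and 171 falls, 54% rises), and ranged from 156 to 679 with 1 library left out. Without WT replicate 3 there were 412 rises and 235 falls (63.7%). In the other pathway lists the 4 calls became 2 without a filter, 2 without a variance trend, 8 under median-of-ratios scaling and 2 without WT replicates 3 and 4, and ranged from 0 to 4 with 1 library left out. The cause of these shifts was not tested.

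Same-numbered WT and KO libraries did not deviate together (correlations from -0.113 to 0.012, 0 of 4 pairs over 0.1). Pairs with different numbers ranged from -0.133 to 0.107. No pairing by number was seen, though 4 pairs are too few to exclude it. With the replicate number as a block, 209 genes, 1 of the 37 (Ppp1r15a) and 0 of the pathway genes were called.

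Chac1, at a log2 fold change of 0.001, changed sign to -0.036 under median-of-ratios scaling, -0.021 after quantile normalization, -0.024 after rescaling over protein-coding genes and -0.001 with library weights, and with 1 library left out it ranged from -0.037 to 0.028 (-0.037, -0.01, -0.024 and -0.008 without WT replicates 1 and 4 and KO replicates 2 and 3). Cebpg became 0.005 without WT replicate 2 and 0 without WT replicate 4 (range -0.026 to 0.005), and Iars 0.018 without WT replicate 2 (range -0.066 to 0.018). Read depth per library cannot be recovered from TPM, so the precision of the lower genes rests on the 4 libraries per group.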
